A study of Homo sapiens with 18 samples.

Results

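The genes described here encode the proteases, the proton pump and part of the membrane-traffic machinery of lysosomes and of lysosome-related organelles such as the melanosome. They were chosen by symbol: the cathepsins (CTS genes), the subunits of the vacuolar H+-ATPase (ATP6V genes) and its accessory proteins (ATP6AP genes), the subunits of the adaptor AP-3, the BLOC1S and HPS genes with DTNBP1, the LAMP family, LYST and GUSB. The rule found 54 genes among 11232 genes with a single current symbol. Each gene was read from 1 probe set, the one with the highest mean over all arrays, out of 103 probe sets for the 54 genes; 22 of them had more than 1. Of the 54, 52 are protein coding and 2, ATP6AP1-DT and ATP6V0E2-AS1, are noncoding RNAs. They divide into 13 cathepsins, 9 V-ATPase V0 genes, 8 V1 genes, 3 accessory genes, 6 AP-3 genes, 10 BLOC and HPS genes, 3 LAMP genes, and LYST and GUSB.

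Expression was measured as log2 signal on Affymetrix probe-set arrays in 2 human melanoma lines, C32 and the A375 derivative A375M2, in 6 groups of 3 arrays. All cells were transduced with lentivirus. A375M2 received a vector with GFP (A375M2 GFP), full-length PMEL driven by a CMV promoter (A375M2 PMEL), shRNAs against FHL2 (A375M2 shFHL2) or shRNAs against NFYA (A375M2 shNFYA), and C32 received GFP (C32 GFP) or the FHL2 shRNAs (C32 shFHL2). The FHL2 shRNAs were a pool of 3 constructs. Cells of the described transductions were sorted for high GFP and kept under drug selection; for A375M2 GFP, PMEL and shFHL2 the series gives 15 days in selective medium and RNA taken at 80% confluence from separate experiments. The labels give no such details for shNFYA or C32 and do not tell which of 2 described GFP vectors the GFP arrays hold, and a non-targeting hairpin group is not analysed here. FHL2 is a LIM-domain scaffold protein, PMEL forms the fibrils of melanosomes and NFYA belongs to NF-Y, the factor that binds CCAAT.

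Cathepsins are proteases, most of them active in the acid interior of the lysosome, which the V-ATPase maintains by pumping protons: its membrane sector V0 carries the protons and its cytosolic sector V1 hydrolyses ATP. AP-3 and the BLOC complexes sort cargo from endosomes to lysosomes and melanosomes, and inherited loss of several of their subunits gives Hermansky-Pudlak syndrome, with albinism. LYST, mutated in Chediak-Higashi syndrome, controls the size of lysosome-related organelles. MITF, the lineage factor of melanocytes, and its relatives TFEB and TFE3 bind E-box motifs such as TCACGTGA in the promoters of many lysosomal genes.

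Several facts of the arrays bear on every value. Replicate 3 of C32 GFP equalled the average of the other two within an SD of 0.00746, where other arrays differed from their group's mean with an SD of 0.108 to 0.171, and was left out, so C32 GFP values come from 2 arrays and the fit from 17. Replicate 3 of A375M2 GFP and replicate 3 of A375M2 PMEL deviated from their groups as mirror images (correlation -0.999 across the genes tested, which are not independent replicates). Their mean equalled that of replicates 1 and 2 of both groups within an SD of 0.0032. For pairs of A375M2 shFHL2 and shNFYA arrays this SD was 0.0953 to 0.108. Both arrays stayed in the fit, so SEs and p-values may rest on arrays that are not independent measurements. Counts are also given without these 2 arrays. Arrays also differed in how many exact low values they shared. Replicates 1 and 2 of A375M2 GFP and PMEL shared 536 to 541 between groups and 0 with any other array. Replicate 3 of GFP and of PMEL shared 537 with each other and 221 with C32 GFP replicate 3, and 0 with the rest. The A375M2 shFHL2 and shNFYA arrays shared 306 to 315, and 38 to 50 with the C32 arrays of both groups in the fit. Where A375M2 GFP is set against an shRNA arm or against C32, group and array set therefore cannot be told apart, whereas PMEL against GFP, C32 shFHL2 against C32 GFP, and shFHL2 against shNFYA compare arrays that shared such values. Signals of 18S rRNA were 14.18 ± 0.070 in A375M2 shFHL2 and 14.19 ± 0.11 in shNFYA against 12.52 ± 0.035 in A375M2 GFP, and the 3′ minus 5′ difference of the actin probe sets was 1.07 ± 0.082 and 1.19 ± 0.083 against 0.61 ± 0.13. With PMEL, 18S was 11.08 ± 0.020. Poly-A spike-ins read 9.37 ± 0.28 in C32 GFP and 5.96 ± 0.037 in C32 shFHL2, and hybridisation spike-ins 12.12 ± 0.13 and 11.14 ± 0.062. The part of these in the results was not tested. The 8 of 9 melanocyte markers that were measured had a summed signal of 15.18 to 15.28 (log2) in A375M2 GFP, 15.19 to 15.25 in PMEL, 13.14 to 13.24 in shFHL2, 13.04 to 13.12 in shNFYA, 16.42 to 16.50 in C32 GFP and 15.38 to 15.46 in C32 shFHL2. Under log2 4 were MLANA in A375M2 GFP and PMEL, PMEL, MLANA, TYR and TYRP1 in shFHL2, and PMEL, MLANA and TYR in shNFYA; in C32 none was. The 6 of 7 fibroblast markers measured summed to 11.50 to 11.69 in A375M2 GFP, 10.21 to 10.25 in PMEL, 8.92 to 9.04 in shFHL2 and 8.74 to 8.93 in shNFYA. They summed to 12.15 to 12.32 in C32 GFP and 12.73 to 12.75 in C32 shFHL2. DCN was under log2 4 throughout, COL1A2 in A375M2, FAP in both A375M2 shRNA arms and LUM in C32. The 4 of 7 epithelial markers summed to 11.37 to 11.52, 11.32 to 11.40, 12.75 to 12.82 and 12.12 to 12.21 in the same A375M2 order and to 7.08 to 7.59 in C32. The part of these lists was not tested. The targeted genes followed their labels: FHL2 fell by 4.04 log2 in A375M2 (SE 0.14, limma adjusted p = 1.62e-14) and by 5.24 in C32 (SE 0.16, limma adjusted p = 2.45e-14), NFYA fell by 2.06 in shNFYA (SE 0.094, limma adjusted p = 4.33e-13) and PMEL rose by 3.38 in the PMEL arm (SE 0.13, limma adjusted p = 1.59e-12). NFYA also fell by 0.73 in A375M2 shFHL2 (SE 0.094, limma adjusted p = 1.04e-06) and was not called in C32 shFHL2 (-0.12). In such bulk RNA, fewer cells of a type and less RNA per cell cannot be told apart. Separate cultures are not stated for C32 or shNFYA, and p-values involving them then cover only array-to-array spread, which may be technical. All groups share an estimate of the spread in the fit, so this spread enters every SE and p-value. That includes comparisons among A375M2 GFP, PMEL and shFHL2.

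The promoter sequences of 7 genes are shown because they hold the 8-base form of the E-box named above. RefSeq promoters (GRCh38.p14) were found for 36 of the 54 genes, 54 promoters in all, and the 250 bases before each start were searched. TCACGTGA, which is its own reverse complement and contains CACGTG, was in 7 of the 54 (13.0%) and in 0.854% of all 35116 promoters; this form was added after the motifs planned for the search. The capitals mark it in the stretches below, written 5′ to 3′ on the strand of the gene and ending at the start site or 30 bases past the motif.

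CTSA, chr20:45891279-45891334, plus strand: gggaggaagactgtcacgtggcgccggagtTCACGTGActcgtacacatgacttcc
LAMP1, chr13:113297180-113297238, plus strand: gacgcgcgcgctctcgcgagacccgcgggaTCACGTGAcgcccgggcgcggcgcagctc
ATP6V0D1, chr16:67481180-67481247, minus strand: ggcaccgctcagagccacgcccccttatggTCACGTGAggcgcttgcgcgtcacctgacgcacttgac
ATP6V1G1, chr9:114587680-114587747, plus strand: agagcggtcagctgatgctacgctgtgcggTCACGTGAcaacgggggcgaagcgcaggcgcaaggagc
BLOC1S1, chr12:55715997-55716045, plus strand: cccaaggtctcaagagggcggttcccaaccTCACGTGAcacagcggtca
HPS3, chr3:149129577-149129637, plus strand: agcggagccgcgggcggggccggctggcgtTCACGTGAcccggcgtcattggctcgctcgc
HPS5, chr11:18322219-18322286, minus strand: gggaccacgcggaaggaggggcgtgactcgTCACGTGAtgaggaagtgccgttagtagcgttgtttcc

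These 7 genes belong to the cathepsins, the LAMP family, both V-ATPase sectors, BLOC-1 and BLOC-2. CACGTG alone was in 22.2% of the 54 promoters against 6.34% of all promoters, CATGTG or its reverse complement, the core of the M-box, in 18.5% against 9.42%, and CCAAT or its reverse complement, the motif of NF-Y, in 21 of 54 (38.9%) against 11240 of 35116. CTSF, a cysteine cathepsin that was lower in every shRNA arm, held CACGTG at 2 places, whereas the promoter of CTSH, also lower in every shRNA arm, held none of the motifs. Of 3 RefSeq promoters of LYST, 1 held CCAAT on its opposite strand, and the other two held CATGTG or its reverse complement and no CCAAT. Those of CTSF and the first of LYST are shown whole, with the motif in capitals.

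CTSF, chr11:66568607-66568856, minus strand: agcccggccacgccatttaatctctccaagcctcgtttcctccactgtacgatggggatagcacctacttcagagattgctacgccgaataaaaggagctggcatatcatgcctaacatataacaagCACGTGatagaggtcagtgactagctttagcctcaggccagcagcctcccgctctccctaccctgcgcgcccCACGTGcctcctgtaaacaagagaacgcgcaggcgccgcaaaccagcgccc
LYST, chr1:235866907-235867156, minus strand: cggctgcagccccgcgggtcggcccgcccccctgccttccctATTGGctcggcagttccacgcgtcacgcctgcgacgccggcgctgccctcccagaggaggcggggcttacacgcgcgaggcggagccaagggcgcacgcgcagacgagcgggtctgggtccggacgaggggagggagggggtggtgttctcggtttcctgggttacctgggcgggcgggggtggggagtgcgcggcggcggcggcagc

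A match is a description of the letters, not of a bound site. The 7 genes with TCACGTGA did not share a direction. In A375M2 shFHL2 against GFP their log2 differences were -1.71 for CTSA, -0.54 for LAMP1, -0.31 for HPS3, -0.25 for ATP6V0D1, 0.09 for BLOC1S1, 0.12 for HPS5 and 0.27 for ATP6V1G1, and BLOC1S1 alone of these was not called. In C32 shFHL2 against C32 GFP, CTSA (-1.06), HPS5 (-1.03), BLOC1S1 (-0.52) and LAMP1 (-0.11) were lower and HPS3 (0.27) was higher. ATP6V0D1 (0.05) and ATP6V1G1 (-0.06) were not called. Other probe sets of HPS3 were higher in A375M2 shFHL2, at 1.20 and 1.06.

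All 54 genes passed the filter on low values (3 or more of the 18 arrays at log2 4 or above) and entered the test. CTSE, AP3B2, ATP6V0D2 and ATP6V0E2-AS1 passed through the groups in which they were high, in 4, 6, 6 and 3 arrays, so their differences are given as descriptions and counts of the other 50 genes are given beside those of the 54. In A375M2 shFHL2 against GFP, 45 of the 54 were called at a limma adjusted p under 0.05, beside 85.4% of all 10940 genes tested. Of these, 29 were lower (44.3% of all genes) and 16 higher (41.1%). At 2-fold or more there were 19 (31.4%), 13 lower (16.2%) and 6 higher (15.2%). In A375M2 shNFYA against GFP, 45 were called (86.8%), 23 lower (43.3%) and 22 higher (43.5%), a balance that median centring of the arrays moved to 18 lower and 26 higher, with the median of all genes at 0.11. At 2-fold there were 16 (35.8%), 10 lower (18.5%) and 6 higher (17.3%). In A375M2 PMEL against GFP, 28 were called (39.9%), 21 lower (17.8%) and 7 higher (22.1%), and without replicate 3 of both groups 14 and 6. Past 2-fold were 2 (2.14%), CTSK lower (1.62%) and LAMP3 higher (0.521%). In C32 shFHL2 against C32 GFP, 33 were called (62.6%), 22 lower (30.3%) and 11 higher (32.2%), and 8 passed 2-fold (8.56%), 6 lower (5.04%) and 2 higher (3.52%). The arrays of the compared groups did not overlap for 44 of the 54 genes in A375M2 shFHL2 (86.9% of all genes), 46 in shNFYA (87.1%), 28 with PMEL (49.8%) and 43 in C32 shFHL2 (74.6%). Of the other 50 genes, 29 were lower and 14 higher in A375M2 shFHL2, 22 and 20 in shNFYA, 21 and 7 with PMEL and 20 and 10 in C32 shFHL2. The median log2 difference of the 54 was -0.23 in A375M2 shFHL2, 0.02 in shNFYA, -0.07 in PMEL and -0.09 in C32 shFHL2, beside -0.04, 0.00, 0.02 and 0.00 over all genes tested. Without replicate 3 of A375M2 GFP and PMEL, the shFHL2 counts were 28 lower and 16 higher and the shNFYA counts 21 and 22. The shFHL2, shNFYA and PMEL comparisons of A375M2 share the GFP arrays, so their values are set side by side and no overlap between them is given.

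**Figure D1:**
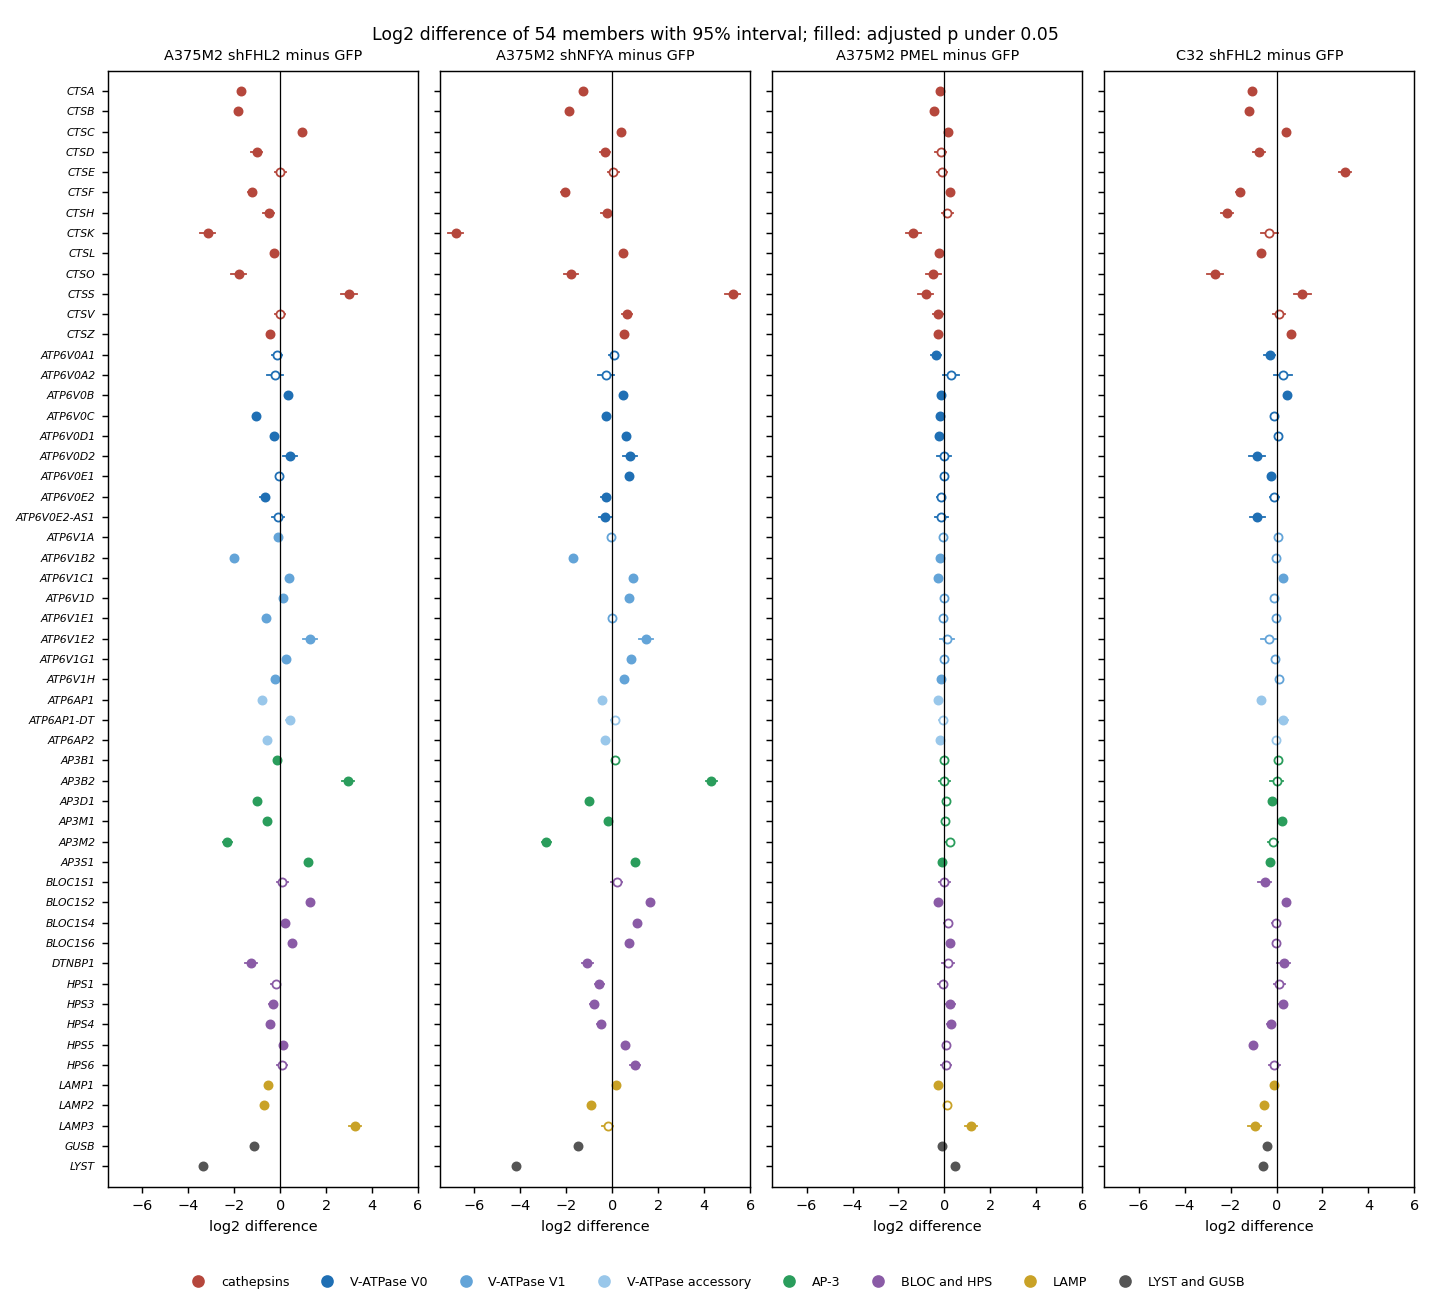
Log2 difference of each of the 54 genes (rows, coloured by group of genes) with its 95% interval, in A375M2 shFHL2, shNFYA and PMEL against A375M2 GFP and in C32 shFHL2 against C32 GFP (panels, left to right); filled points have a limma adjusted p under 0.05. CTSK lies furthest to the left in shNFYA, at -6.82, CTSS furthest to the right, at 5.24, and the PMEL panel is the narrowest, from -1.36 to 1.17.

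More cathepsin mRNAs were lower than higher in each shRNA arm, least so in shNFYA. The main probe sets of CTSS and CTSC were higher in all 3 arms. Of 13 cathepsins, 9 fell and 2 rose in A375M2 shFHL2, 7 fell and 5 rose in shNFYA, 8 fell and 2 rose with PMEL, and 7 fell and 4 rose in C32 shFHL2. CTSE, which passed the filter through C32, is among the 4, which leaves 3 of 12. The median differences were -0.51, -0.24, -0.24 and -0.68. In the same order, 44.3%, 43.3%, 17.8% and 30.3% of all genes tested were lower. Higher were 41.1%, 43.5%, 22.1% and 32.2%.

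CTSK, the collagen-degrading cysteine protease best known from osteoclasts, had the widest range of any of the 54. Its log2 signals were 11.13, 11.05 and 10.93 in A375M2 GFP, 9.70, 9.55 and 9.79 in PMEL, 7.91, 7.98 and 7.78 in shFHL2 and 4.10, 3.89 and 4.67 in shNFYA. In C32 they were 3.299 and 3.05 with GFP and 3.02, 2.89 and 2.65 with the FHL2 shRNAs, all under log2 4. The 4 A375M2 groups did not overlap and stood in the order GFP, PMEL, shFHL2, shNFYA. The fibroblast marker LUM had means of 11.11, 9.08, 7.37 and 7.50 in that order, so it did not fall from shFHL2 to shNFYA. Of the other fibroblast markers, COL1A2 and DCN were under log2 4 in all 4 A375M2 groups and FAP in both shRNA arms. With LUM counted, 4 of the 6 measured had means of log2 4 or more in GFP and PMEL and 3 in each shRNA arm. The part of these markers was not tested. Against GFP the differences were -1.36 (SE 0.16, limma adjusted p = 2.67e-06) with PMEL, -3.15 (SE 0.16, limma adjusted p = 1.79e-12) with shFHL2 and -6.82 (SE 0.16, limma adjusted p = 2.06e-17) with shNFYA, and shFHL2 stood 3.67 (SE 0.16, limma adjusted p = 9.18e-13) above shNFYA. In C32 the difference of -0.32 (SE 0.17, limma adjusted p = 0.123) was not called and lies among values under log2 4.

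CTSS, the cathepsin that trims the invariant chain in antigen-presenting cells, moved the other way. Its signals were 5.33, 5.81 and 5.35 in A375M2 GFP, 8.41, 8.54 and 8.53 in shFHL2 and 10.98, 10.79 and 10.42 in shNFYA. The PMEL arrays read 4.84, 4.39 and 4.82, below those of GFP, and the C32 arrays 4.45 and 4.69 with GFP and 5.76, 5.52 and 5.76 with the FHL2 shRNAs. The rises were 2.99 (SE 0.16, limma adjusted p = 3.88e-12) in shFHL2, 5.24 (SE 0.16, limma adjusted p = 9.06e-16) in shNFYA and 1.11 (SE 0.17, limma adjusted p = 2.44e-05) in C32, and PMEL gave -0.81 (SE 0.16, limma adjusted p = 0.000527). The other 2 probe sets of CTSS rose in the same 3 arms, by 2.36 to 5.40 in A375M2 and by 0.92 and 1.24 in C32. PTPRC, the only macrophage marker of 6 that was measured, stayed between 2.16 and 2.28 in all A375M2 arrays; in C32 it read 8.63 with GFP and 7.80 with the FHL2 shRNAs.

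**Figure D2:**
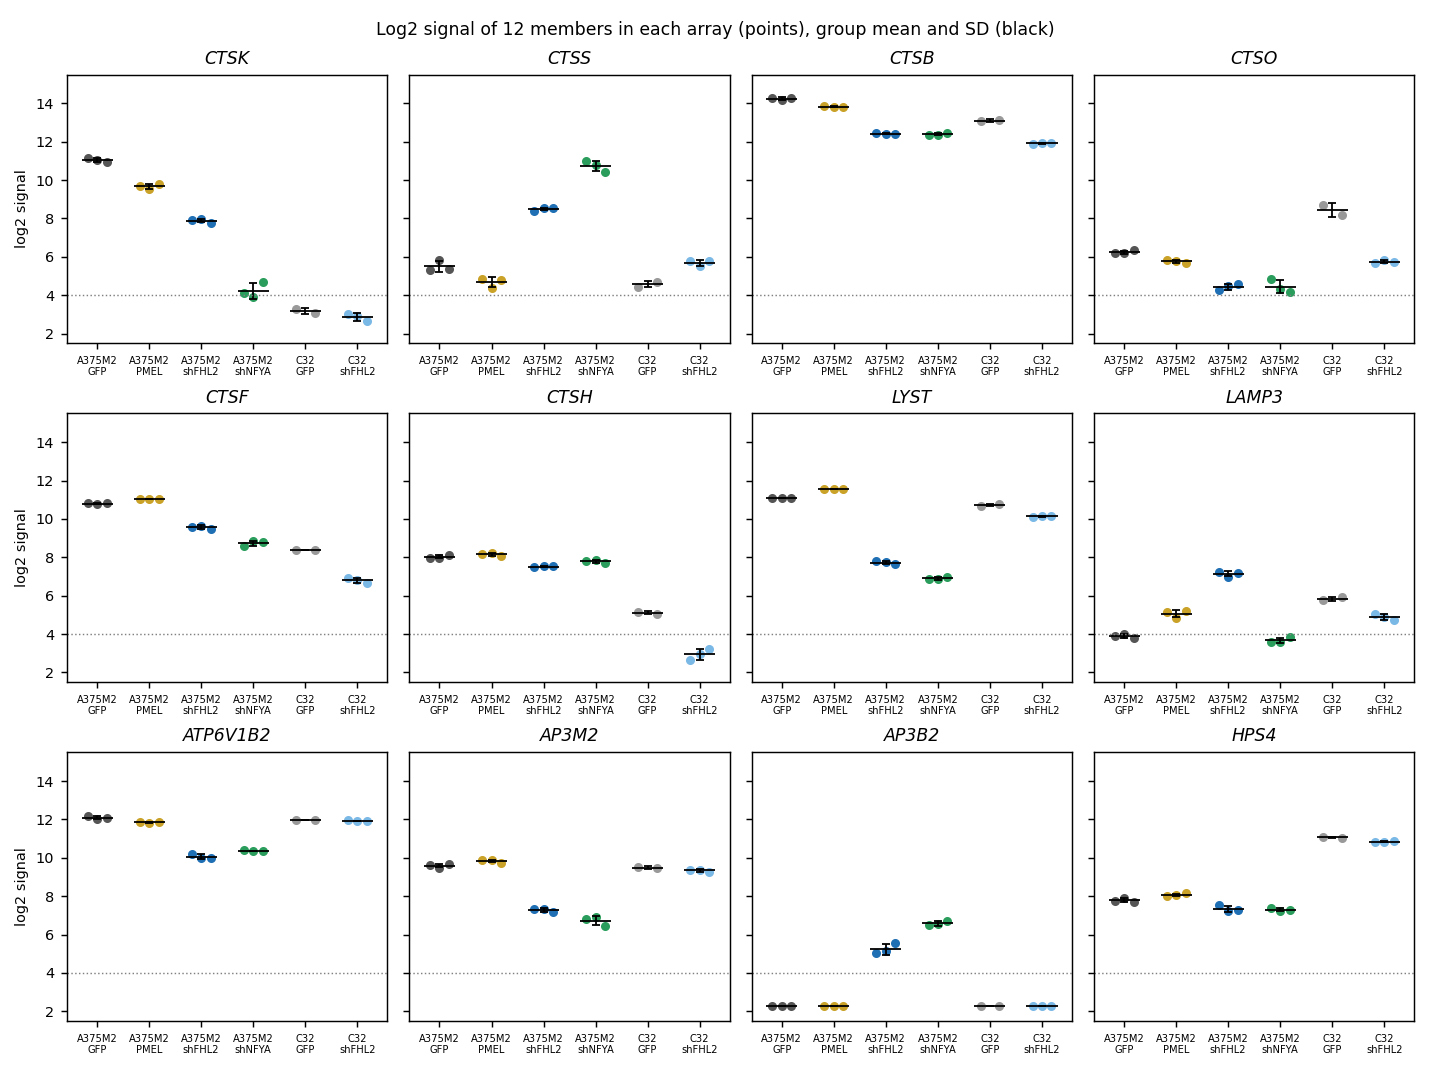
Log2 signal of 12 genes in each array (points) by group, with the group mean and SD in black; the dotted line marks log2 4, and C32 GFP has 2 arrays. CTSK steps down from A375M2 GFP to shNFYA while CTSS climbs, LYST, AP3M2 and ATP6V1B2 are low in both A375M2 shRNA arms and not in C32, and HPS4 separates the lines.

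CTSB, an abundant endo- and exopeptidase, fell in all 4 arms. Its signals were 14.28, 14.18 and 14.28 in A375M2 GFP, 13.84, 13.82 and 13.79 in PMEL, 12.44, 12.39 and 12.40 in shFHL2 and 12.35, 12.35 and 12.46 in shNFYA, and 13.06 and 13.15 in C32 GFP against 11.89, 11.93 and 11.93 in C32 shFHL2. No array of an arm reached the arrays of its control. The differences were -1.84 (SE 0.037, limma adjusted p = 6.04e-18), -1.86 (SE 0.037, limma adjusted p = 3.26e-18), -0.43 (SE 0.037, limma adjusted p = 9.17e-08) and -1.19 (SE 0.042, limma adjusted p = 1.47e-13) in A375M2 shFHL2, shNFYA, PMEL and C32 shFHL2. All 5 probe sets of CTSB were lower in each of the 4 arms, by 0.99 to 2.17 in shFHL2 and by 0.73 to 1.23 in C32.

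CTSA, the carboxypeptidase that protects beta-galactosidase and neuraminidase, read 12.50, 12.38 and 12.36 in A375M2 GFP, 10.71, 10.65 and 10.77 in shFHL2 and 11.12, 11.17 and 11.16 in shNFYA, and 12.37 and 12.53 in C32 GFP against 11.37, 11.44 and 11.36 in C32 shFHL2. The difference between the 2 GFP groups was 0.03 (95% interval -0.08 to 0.15), and all 3 shRNA arms lay below them. It fell by 1.71 in shFHL2 (limma adjusted p = 5.23e-16), by 1.27 in shNFYA (limma adjusted p = 2.72e-14) and by 1.06 in C32 (limma adjusted p = 1.46e-11). CTSO, a little studied cysteine cathepsin, read 6.22, 6.19 and 6.34 in A375M2 GFP, 4.28, 4.47 and 4.57 in shFHL2 and 4.82, 4.34 and 4.17 in shNFYA. In C32 its signals were 8.69 and 8.16 with GFP and 5.66, 5.84 and 5.73 with the FHL2 shRNAs, a difference of -2.68 (SE 0.17, limma adjusted p = 2.78e-10). The fall was larger in C32 than in A375M2 by 0.87 log2 (SE 0.23, limma adjusted p = 0.00198).

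CTSF and CTSH, both cysteine cathepsins, differed in where they fell most. CTSF, whose promoter is printed above, went from 10.79 ± 0.028 (SD, n = 3) in A375M2 GFP to 9.56 ± 0.098 in shFHL2 and 8.73 ± 0.14 in shNFYA, with limma adjusted p of 1.67e-11 and 7.45e-15. In C32 it went from 8.39 and 8.36 to 6.92, 6.82 and 6.66, a difference of -1.58 (SE 0.08, limma adjusted p = 1.49e-11), and PMEL raised it by 0.25 (SE 0.071, limma adjusted p = 0.00882). CTSH, an aminopeptidase, read 5.16 and 5.05 in C32 GFP and 2.66, 2.95 and 3.22 in C32 shFHL2, where all 3 arrays fell under log2 4. Its difference was -2.16 (SE 0.12, limma adjusted p = 6.69e-11) in C32 but -0.51 in A375M2 shFHL2 and -0.24 in shNFYA. With values under log2 4 set to 4 the C32 difference was -1.10.

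CTSD, the main aspartic protease of the lysosome, read 8.14, 8.43 and 8.13 in A375M2 GFP and 7.28, 7.38 and 6.97 in shFHL2, and 10.60 and 10.55 in C32 GFP against 9.66, 9.73 and 10.00 in C32 shFHL2. It fell by 1.02 (limma adjusted p = 1.1e-07) and by 0.77 (limma adjusted p = 3.01e-05), and the effects of the 2 lines were not called different (0.25, 95% interval -0.10 to 0.60). CTSE, an aspartic protease of endosomes in epithelia and immune cells, was under log2 4 in all A375M2 arrays, at 4.04 and 3.77 in C32 GFP and at 6.81, 6.85 and 7.01 in C32 shFHL2. That is a difference of 2.98, given without a test because the gene passed the filter mainly through C32 shFHL2.

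The remaining cathepsins moved less. CTSC, which activates serine proteases of immune granules, rose by 0.93 (SE 0.03, limma adjusted p = 3.46e-15) in shFHL2 and by 0.39 (SE 0.033, limma adjusted p = 1.43e-08) in C32. Its rise in shNFYA was 0.38, but another probe set of CTSC gave -0.49 there and -0.13 in C32. CTSL, a broad endopeptidase, was lower by 0.28 in shFHL2 and by 0.68 in C32 and higher by 0.45 in shNFYA, all called. CTSZ, a carboxypeptidase, was lower by 0.45 in A375M2 shFHL2 and higher by 0.51 in shNFYA and by 0.64 in C32. CTSV, a relative of CTSL, was called in shNFYA (0.63) and, with overlapping arrays, in PMEL (-0.28).

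The V-ATPase did not move as a block. Of the 9 V0 genes, ATP6V0D2 and the antisense RNA ATP6V0E2-AS1 passed the filter through C32 alone. Of the other 7, 3 fell and 1 rose in A375M2 shFHL2, 2 fell and 3 rose in shNFYA, 4 fell and 0 rose with PMEL, and 2 fell and 1 rose in C32. Of the 8 V1 genes, 4 fell and 4 rose in shFHL2 and 1 fell and 5 rose in shNFYA. With PMEL 3 fell, and in C32 1 rose and 0 fell. Over all genes tested, 44.3%, 43.3%, 17.8% and 30.3% fell and 41.1%, 43.5%, 22.1% and 32.2% rose in these arms. Called at 2-fold or more in an shRNA arm were ATP6V1B2, ATP6V1E2 and ATP6V0C.

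In V1 the widest fall was in the ATP-binding B2 subunit, ATP6V1B2. Its signals were 12.16, 12.01 and 12.06 in A375M2 GFP, 11.88, 11.83 and 11.88 in PMEL, 10.21, 10.01 and 9.97 in shFHL2 and 10.38, 10.37 and 10.37 in shNFYA, and in C32 11.96 and 11.98 with GFP and 11.95, 11.92 and 11.91 with the FHL2 shRNAs. The A375M2 shRNA arms were low, and both C32 groups lay between 11.91 and 11.98. The differences were -2.01 (SE 0.05, limma adjusted p = 1.07e-16) and -1.70 (SE 0.05, limma adjusted p = 7.71e-16) in A375M2, and in C32 the interval of the difference was -0.16 to 0.07. ATP6V1A, the catalytic subunit that pairs with B2, differed by -0.11 in shFHL2 (called), -0.06 in shNFYA and 0.05 in C32 (neither called), and its group means stayed between 12.33 and 12.54 throughout.

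The E subunits of the peripheral stalk went apart in A375M2. ATP6V1E1, the ubiquitous form, fell from 11.95 ± 0.046 to 11.35 ± 0.027 in shFHL2 (limma adjusted p = 1.14e-11) and was at 11.94 ± 0.039 in shNFYA, not called. ATP6V1E2, the isoform known from testis, rose from 5.93 ± 0.099 to 7.23 ± 0.097 in shFHL2 and 7.39 ± 0.072 in shNFYA, by 1.30 (SE 0.14, limma adjusted p = 7.98e-08) and 1.46 (SE 0.14, limma adjusted p = 1.47e-08). In C32 ATP6V1E2 read 4.63 and 5.28 with GFP and 4.58, 4.55 and 4.70 with the FHL2 shRNAs, overlapping and not called. ATP6V1D and ATP6V1G1, of the central and peripheral stalks, rose by 0.73 and 0.82 in shNFYA and by 0.11 and 0.27 in shFHL2. ATP6V1H, the regulatory H subunit, fell by 0.24 in shFHL2 and rose by 0.52 in shNFYA.

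In V0, ATP6V0C, the proteolipid of the proton-carrying ring, changed most in A375M2 shFHL2. It read 10.82, 10.69 and 10.83 in GFP, 9.65, 9.69 and 9.78 in shFHL2 and 10.38, 10.55 and 10.61 in shNFYA, and 11.13 and 11.27 against 11.11, 11.14 and 11.09 in C32. The shFHL2 arrays were the lowest of all, with a difference of -1.07 (SE 0.058, limma adjusted p = 6.61e-12), against -0.27 (SE 0.058, limma adjusted p = 0.000381) in shNFYA; in C32 it was -0.09 and not called. ATP6V0B, another ring subunit, rose in the 3 shRNA arms, by 0.36 and 0.47 in A375M2 and 0.45 in C32. ATP6V0E1 rose by 0.71 in shNFYA and was not called in shFHL2 (-0.04). Its other probe sets ran from 0.39 to 1.87 in shNFYA and from -0.36 to 1.27 in shFHL2, where they gave no single direction. The paralogue ATP6V0E2 fell by 0.67 in shFHL2 and by 0.28 in shNFYA. ATP6V0D1 fell by 0.25 in shFHL2 and rose by 0.60 in shNFYA, and ATP6V0D2, the isoform of osteoclasts and kidney, was under log2 4 in every A375M2 array and went from 5.90 ± 0.21 (SD, n = 2) to 5.04 ± 0.22 (n = 3) in C32 (-0.86). The a subunits ATP6V0A1 and ATP6V0A2 were not called in A375M2 shFHL2 or shNFYA, but other probe sets of ATP6V0A2 gave 2.74, 1.36 and -0.98 in shFHL2, so this gene has no single direction.

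Both accessory proteins, which help assemble the pump, fell in A375M2. ATP6AP1 went from 11.38 ± 0.059 to 10.58 ± 0.05 in shFHL2 and 10.93 ± 0.07 in shNFYA, and in C32 from 11.89 and 11.999 to 11.24, 11.27 and 11.30. Its differences were -0.79 (SE 0.044, limma adjusted p = 1.06e-11), -0.45 (SE 0.044, limma adjusted p = 3e-08) and -0.67 (SE 0.05, limma adjusted p = 2.11e-09). The divergent noncoding RNA ATP6AP1-DT rose by 0.41 in shFHL2 and by 0.29 in C32, the second of which was lost when only the C32 arrays were fitted (limma adjusted p = 0.0543). ATP6AP2, the prorenin receptor, fell by 0.56 in shFHL2 and by 0.31 in shNFYA and was not called in C32 (-0.02).

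Of the 6 AP-3 genes, 4 fell and 2 rose in A375M2 shFHL2 and 3 fell and 2 rose in shNFYA; with PMEL 1 fell, and in C32 2 fell and 1 rose, none by 2-fold. AP3B2 is one of those higher in both A375M2 arms, which leaves 1 of 5 in each. Over all genes tested, 44.3%, 43.3%, 17.8% and 30.3% fell and 41.1%, 43.5%, 22.1% and 32.2% rose in the 4 comparisons. AP3M2, the mu form enriched in neurons, read 9.62, 9.49 and 9.67 in A375M2 GFP, 7.33, 7.35 and 7.19 in shFHL2 and 6.82, 6.89 and 6.44 in shNFYA, and in C32 9.54 and 9.44 with GFP and 9.38, 9.37 and 9.27 with the FHL2 shRNAs. Its levels were low in the A375M2 shRNA arms alone, with differences of -2.30 (SE 0.094, limma adjusted p = 1.09e-13) and -2.87 (SE 0.094, limma adjusted p = 3.33e-15). The ubiquitous form AP3M1 fell by 0.58 in shFHL2 and by 0.20 in shNFYA and rose by 0.23 in C32.

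AP3B2, the neuronal beta form, was at 2.26 to 2.27 in all arrays of A375M2 GFP and PMEL and of C32, near the lowest values of the table. It read 5.02, 5.12 and 5.54 in shFHL2 and 6.48, 6.56 and 6.72 in shNFYA, so the fitted differences of 2.96 and 4.32 rest on the background value; with values under log2 4 set to 4 they were 1.23 and 2.59. The ubiquitous AP3B1, mutated in Hermansky-Pudlak syndrome, differed by -0.12 in shFHL2 and by 0.10 in shNFYA, the latter not called; its other probe set gave 1.07 and 1.19. AP3D1, the delta subunit shared by all AP-3 complexes, fell from 12.33 ± 0.091 to 11.31 ± 0.053 and 11.33 ± 0.023 (limma adjusted p = 1.48e-13 and 1.66e-13) and by 0.18 in C32. AP3S1, a sigma subunit, rose from 12.58 ± 0.067 to 13.78 ± 0.032 and 13.58 ± 0.042 (limma adjusted p = 1.53e-15 and 1.45e-14) and fell by 0.30 in C32.

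Among the 10 BLOC and HPS genes, 4 rose and 3 fell in A375M2 shFHL2 and 5 rose and 4 fell in shNFYA. With PMEL 3 rose and 1 fell, and in C32 3 rose and 3 fell. Over all genes tested, 41.1%, 43.5%, 22.1% and 32.2% rose and 44.3%, 43.3%, 17.8% and 30.3% fell in these arms. Within BLOC-1, which feeds cargo to maturing melanosomes, BLOC1S2 and DTNBP1 went in opposite directions. BLOC1S2 read 11.34, 11.44 and 11.44 in A375M2 GFP, 12.78, 12.63 and 12.71 in shFHL2 and 13.07, 12.98 and 13.04 in shNFYA, rises of 1.30 (SE 0.041, limma adjusted p = 2.73e-15) and 1.63 (SE 0.041, limma adjusted p = 7.91e-17), and rose by 0.39 in C32. DTNBP1, which encodes dysbindin, read 8.81, 8.83 and 8.56 in A375M2 GFP, 7.48, 7.67 and 7.24 in shFHL2 and 7.54, 7.60 and 7.82 in shNFYA. Its differences were -1.27 (SE 0.12, limma adjusted p = 1.52e-08) and -1.08 (SE 0.12, limma adjusted p = 1.24e-07), with no overlap, while in C32 it rose by 0.32 (SE 0.13, limma adjusted p = 0.0448). BLOC1S4 rose by 0.20 in shFHL2 and by 1.09 in shNFYA, BLOC1S6, which encodes pallidin, by 0.52 and 0.74, and BLOC1S1 was not called in either.

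BLOC-2 and BLOC-3 act later on the same route, and HPS5 and HPS6 belong to BLOC-2. HPS5 read 12.32 and 12.19 in C32 GFP and 11.25, 11.20 and 11.22 in C32 shFHL2, a fall of 1.03 (SE 0.039, limma adjusted p = 3.95e-13), and was higher by 0.12 and 0.54 in A375M2 shFHL2 and shNFYA. HPS6 rose by 0.99 (SE 0.10, limma adjusted p = 4.69e-08) in shNFYA. HPS4, which with HPS1 activates the melanosome GTPases RAB32 and RAB38, fell by 0.44 in shFHL2, by 0.50 in shNFYA and by 0.23 in C32. Another probe set of HPS4 gave 0.20 in shNFYA. HPS1 was called in shNFYA alone of the shRNA arms (-0.56), and HPS3 was lower there by 0.80; for both genes another probe set went the other way in that arm.

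The 3 LAMP genes encode the heavily glycosylated proteins of the lysosomal membrane, of which LAMP3 (DC-LAMP) is the inducible one. LAMP1 fell from 14.24 ± 0.05 to 13.70 ± 0.042 in shFHL2 (limma adjusted p = 3.7e-11), rose to 14.40 ± 0.046 in shNFYA (limma adjusted p = 0.000284) and fell by 0.11 in C32. LAMP3 read 3.89, 4.01 and 3.77 in A375M2 GFP, 5.15, 4.86 and 5.18 in PMEL, 7.25, 6.99 and 7.18 in shFHL2 and 3.61, 3.61 and 3.84 in shNFYA. In C32 it read 5.76 and 5.91 with GFP and 5.04, 4.87 and 4.74 with the FHL2 shRNAs. It was therefore high in A375M2 shFHL2 and near log2 4 in GFP and shNFYA, with differences of 3.25 (SE 0.12, limma adjusted p = 2.94e-14), 1.17 (SE 0.12, limma adjusted p = 7.61e-07) and -0.95 (SE 0.13, limma adjusted p = 8.04e-06) in shFHL2, PMEL and C32; in shNFYA it was -0.21, with overlapping arrays and an interval of -0.46 to 0.05.

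LAMP2, whose splice forms carry different tails, gave no single direction. The probe set that stands for it was lower by 0.69 in shFHL2, 0.92 in shNFYA and 0.56 in C32. A second was lower by 0.80 and 1.25 in A375M2 but higher by 0.51 in C32, and the other two were higher in A375M2, at 0.18 and 0.38 in shFHL2 and 0.21 and 0.54 in shNFYA. ATP6V1C1 had the same kind of split: its main probe set rose by 0.39 in shFHL2 and 0.88 in shNFYA where another fell by 1.63 and 2.51. Of the genes called at 0.5 log2 or more that had other probe sets, the others all agreed in sign for 10 of 11 in shFHL2, 10 of 15 in shNFYA and 4 of 5 in C32 shFHL2.

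**Figure D3:**
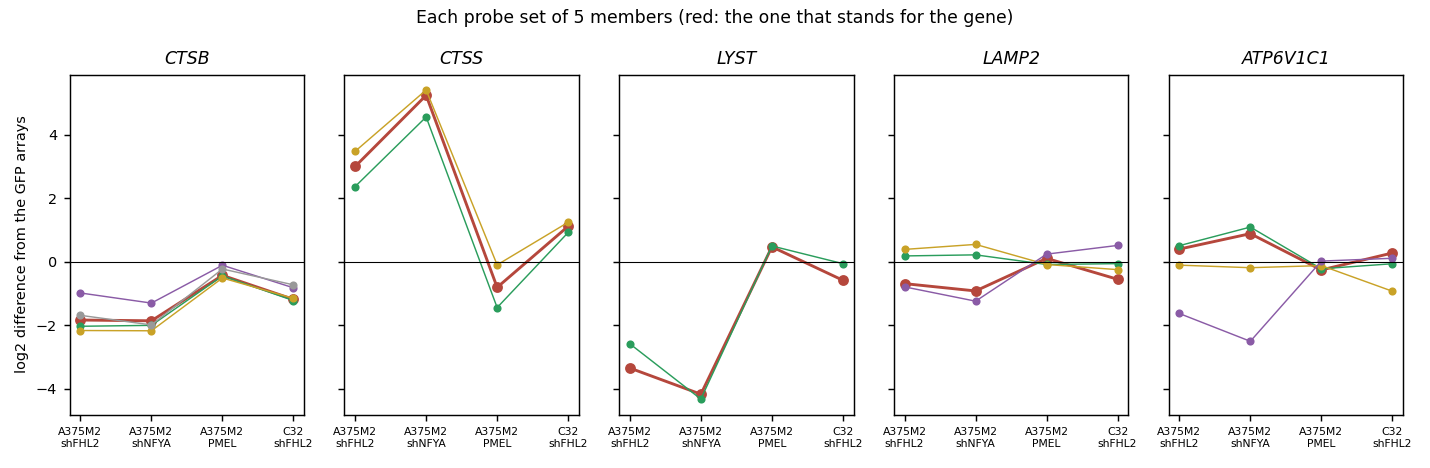
Log2 difference from the GFP arrays of the same line for every probe set (lines) of CTSB, CTSS, LYST, LAMP2 and ATP6V1C1, in A375M2 shFHL2, shNFYA and PMEL and in C32 shFHL2; red marks the probe set that stands for the gene. The 5 probe sets of CTSB fall together and the 3 of CTSS rise together in the shRNA arms, whereas LAMP2 and ATP6V1C1 split, with 1 probe set of ATP6V1C1 at -2.51 in shNFYA.

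LYST had the largest fall in A375M2 shFHL2 of the 54 genes, and after CTSK in shNFYA. Its signals were 11.09, 11.07 and 11.08 in A375M2 GFP, 11.55, 11.54 and 11.55 in PMEL, 7.82, 7.74 and 7.63 in shFHL2 and 6.86, 6.88 and 6.98 in shNFYA, and 10.70 and 10.76 in C32 GFP against 10.12, 10.13 and 10.17 in C32 shFHL2. No groups within a line overlapped: PMEL was highest and shNFYA lowest. The differences were -3.35 (SE 0.049, limma adjusted p = 7.44e-20), -4.18 (SE 0.049, limma adjusted p = 3.01e-21) and, with PMEL, 0.46 (SE 0.049, limma adjusted p = 9.69e-07). The second probe set gave -2.59, -4.33 and 0.49 in these arms. In C32 the fall of 0.59 (SE 0.054, limma adjusted p = 4.13e-08) was not seen in the second probe set, which gave -0.06 (limma adjusted p = 0.832). GUSB, the lysosomal beta-glucuronidase that is often used as a reference gene, read 12.03, 12.04 and 12.07 in A375M2 GFP, 10.91, 10.94 and 10.92 in shFHL2 and 10.54, 10.52 and 10.61 in shNFYA. It fell by 1.12 (limma adjusted p = 1.81e-15) and 1.49 (limma adjusted p = 2.37e-17), and by 0.41 in C32 (limma adjusted p = 5.5e-08).

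By the probe sets that stand for them, PMEL transduction moved these genes little. Beside CTSK, CTSS and LAMP3, the called differences of these probe sets were all under 0.5 log2 in size. Some other probe sets differed by more. Those of ATP6V0E1 ran from -1.52 to 0.03, beside -0.03 for the main one. Another of LAMP1 gave -0.67 and another of HPS1 gave 0.73, where its main one gave -0.07. CTSB fell by 0.43, LAMP1 by 0.29, BLOC1S2 by 0.30, ATP6AP1 by 0.27, ATP6V1C1 by 0.26 and ATP6AP2 by 0.21. CTSO (-0.48), ATP6V0A1 (-0.36) and ATP6V0C (-0.18) were called lower and HPS4 (0.29) higher, but these 4 calls were lost without replicate 3 of both groups (limma adjusted p = 0.149, 0.102, 0.195 and 0.0847). HPS3 (0.26) was called higher and lost its call without A375M2 GFP replicate 1 (limma adjusted p = 0.15) and without A375M2 PMEL replicate 1 or 2 (limma adjusted p = 0.0939 and 0.0748). CTSF rose by 0.25.

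The FHL2 shRNAs were compared between the lines with separate control arrays. Of the 29 genes lower in A375M2 and the 22 lower in C32, 14 were lower in both (48.3% and 63.6% of each list; over all genes tested, 36.8% and 53.8%). They were CTSA, CTSB, CTSD, CTSF, CTSH, CTSL, CTSO, AP3D1, ATP6AP1, GUSB, HPS4, LAMP1, LAMP2 and LYST, so all 7 cathepsins that fell in C32 also fell in A375M2. Higher in both were 6, CTSC, CTSS, ATP6AP1-DT, ATP6V0B, ATP6V1C1 and BLOC1S2 (37.5% and 54.5% of each list; 36.4% and 46.4% over all genes). Called in opposite directions were 8, AP3M1, AP3S1, ATP6V0D2, CTSZ, DTNBP1, HPS3, HPS5 and LAMP3 (17.8% and 24.2% of the called genes; 26.1% and 35.7% over all genes). The call of ATP6V0D2 in A375M2 lies between values under log2 4 and is no test, and 7 remain without it. For LAMP2 and LYST in C32 another probe set of each gave 0.51 and -0.06, and for LAMP1 and CTSC 0.17 and -0.13. Other probe sets of HPS3 were higher in both lines, at 1.20 and 1.06 in A375M2 and 0.41 and 1.39 in C32. For ATP6V1C1 the others gave 0.50, -0.11 and -1.63 in A375M2 and -0.07, -0.93 and 0.10 in C32. The second of them was at log2 4 or above in 6 arrays only.

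**Figure D4:**
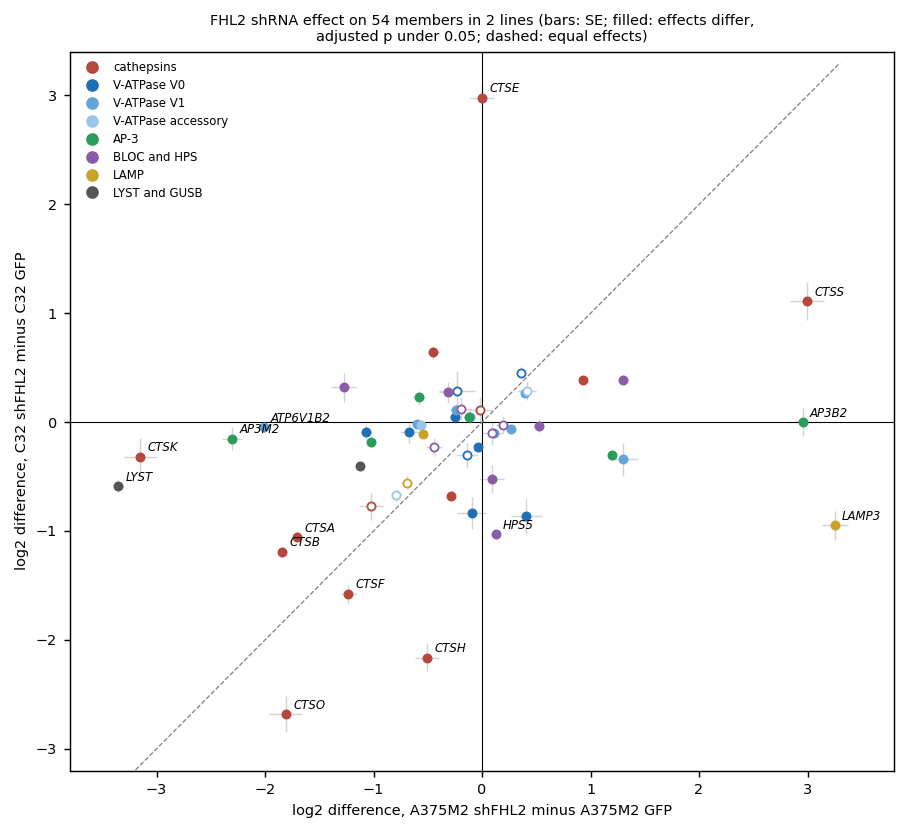
Log2 difference in A375M2 shFHL2 against A375M2 GFP (x axis) and in C32 shFHL2 against C32 GFP (y axis) for the 54 genes, coloured by group, with SE bars; filled points differ between the lines at a limma adjusted p under 0.05 and the dashed line marks equal effects. CTSA, CTSB, CTSF and CTSO lie low in both lines, CTSK, LYST, AP3M2 and ATP6V1B2 lie low along the x axis, CTSE lies high on the y axis, and LAMP3 lies at 3.25 and -0.95.

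Tested as an interaction, the effect of the FHL2 shRNAs differed between the lines for 42 of the 54 genes (80.2% of all genes), 22 with the C32 value above and 20 below that of A375M2 (42.1% and 38.1%). Without replicate 3 of A375M2 GFP and PMEL these were 21 and 19, and among the other 50 genes 21 and 17. At 2-fold or more it differed for 15 (34%), 7 above and 8 below (17.2% and 16.7%). The widest tested gaps, C32 minus A375M2, were -4.20 (SE 0.18) for LAMP3 and 2.76 (SE 0.073) for LYST. Their limma adjusted p were 5.23e-13 and 7.29e-16. CTSK differed by 2.83, but it was under log2 4 in all C32 arrays and a fall there could hardly be measured. This gap of CTSK is therefore a description and no test. CTSE and AP3B2 differed by 2.98 and -2.96, given as descriptions. The gaps of ATP6V1B2, 1.97 (SE 0.075), and AP3M2, 2.15 (SE 0.14), came from genes above log2 6 in all arrays of both lines. The effects on CTSD (0.25), ATP6AP1 (0.12), LAMP2 (0.14), ATP6V0B (0.10) and HPS4 (0.21) were not called different; their intervals were -0.10 to 0.60, -0.02 to 0.26, -0.03 to 0.30, -0.05 to 0.24 and -0.02 to 0.44.

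V-ATPase genes were among those that differed between the A375M2 shRNA arms. In shFHL2 against shNFYA, 42 of the 54 genes were called (70.1% of all genes), 30 lower and 12 higher (38.3% and 31.8%), and 44 did not overlap (74%). Of the other 50 genes, 28 were lower and 12 higher. Among these were 5 of 7 V0 and 6 of 8 V1 genes lower, with 0 higher. ATP6V0D1 was lower by 0.85, ATP6V0C by 0.81, ATP6V0E1 by 0.75, ATP6V1H by 0.76, ATP6V1D by 0.61 and ATP6V1E1 by 0.59, with limma adjusted p from 1.15e-09 for ATP6V0C to 4.52e-13 for ATP6V0E1. Past 2-fold were 4 genes (10.4%), 2 higher (6.37%) and 2 lower (4.02%): CTSK (3.67) and LAMP3 (3.46) were higher and CTSS (-2.24) and AP3B2 (-1.36) lower in shFHL2. HPS6, BLOC1S4 and CTSZ were lower by 0.90, 0.90 and 0.96. CTSB (0.02, interval -0.05 to 0.10), CTSO (-0.01, interval -0.32 to 0.31) and AP3D1 (-0.03, interval -0.12 to 0.06) were not called different.

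The lines themselves differed widely. In C32 GFP against A375M2 GFP, 46 of the 54 genes were called (85.9% of all genes), 27 higher and 19 lower (38.7% and 47.2%), and 48 did not overlap (89.9%). At 2-fold or more were 21 (43.1%), 13 higher and 8 lower (18.3% and 24.8%). Of the other 50 genes, 24 were higher and 19 lower. Leaving out ATP6V0D2 and ATP6V0E2-AS1, the 7 V0 genes were called higher in C32, with a median of 1.00, though for ATP6V0A2 another probe set gave -2.07. The 3 LAMP genes were higher too, and leaving out CTSE 3 of 12 cathepsins were higher and 7 lower. ATP6V0E2 read 8.41, 8.37 and 8.25 in A375M2 GFP and 11.58 and 11.62 in C32 GFP, a difference of 3.25 (SE 0.1, limma adjusted p = 1.24e-15). Its antisense RNA ATP6V0E2-AS1 was higher by 1.70, and the values of this overlapping pair are uncertain because the sources used do not state the strand of the probes. ATP6V0D2 was higher by 3.29 from values under log2 4, a description only, and ATP6V0A2 by 2.13.

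HPS4, of BLOC-3, read 7.73, 7.91 and 7.72 in A375M2 GFP and 11.08 and 11.06 in C32 GFP, a difference of 3.28 (SE 0.082, limma adjusted p = 7.05e-17). HPS3 was higher by 1.66 and HPS1 by 1.20 in C32, and BLOC1S4 lower by 2.29. CTSD (2.34) and CTSO (2.17) were higher in C32, and CTSK (-7.87), CTSH (-2.92), CTSF (-2.42), CTSZ (-1.39) and CTSB (-1.15) lower. ATP6V1B2 (-0.11, interval -0.23 to 0.01), AP3M2 (-0.10, interval -0.32 to 0.12) and CTSL (0.04, interval -0.05 to 0.13) were not called different between the control groups.

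**Figure D5:**
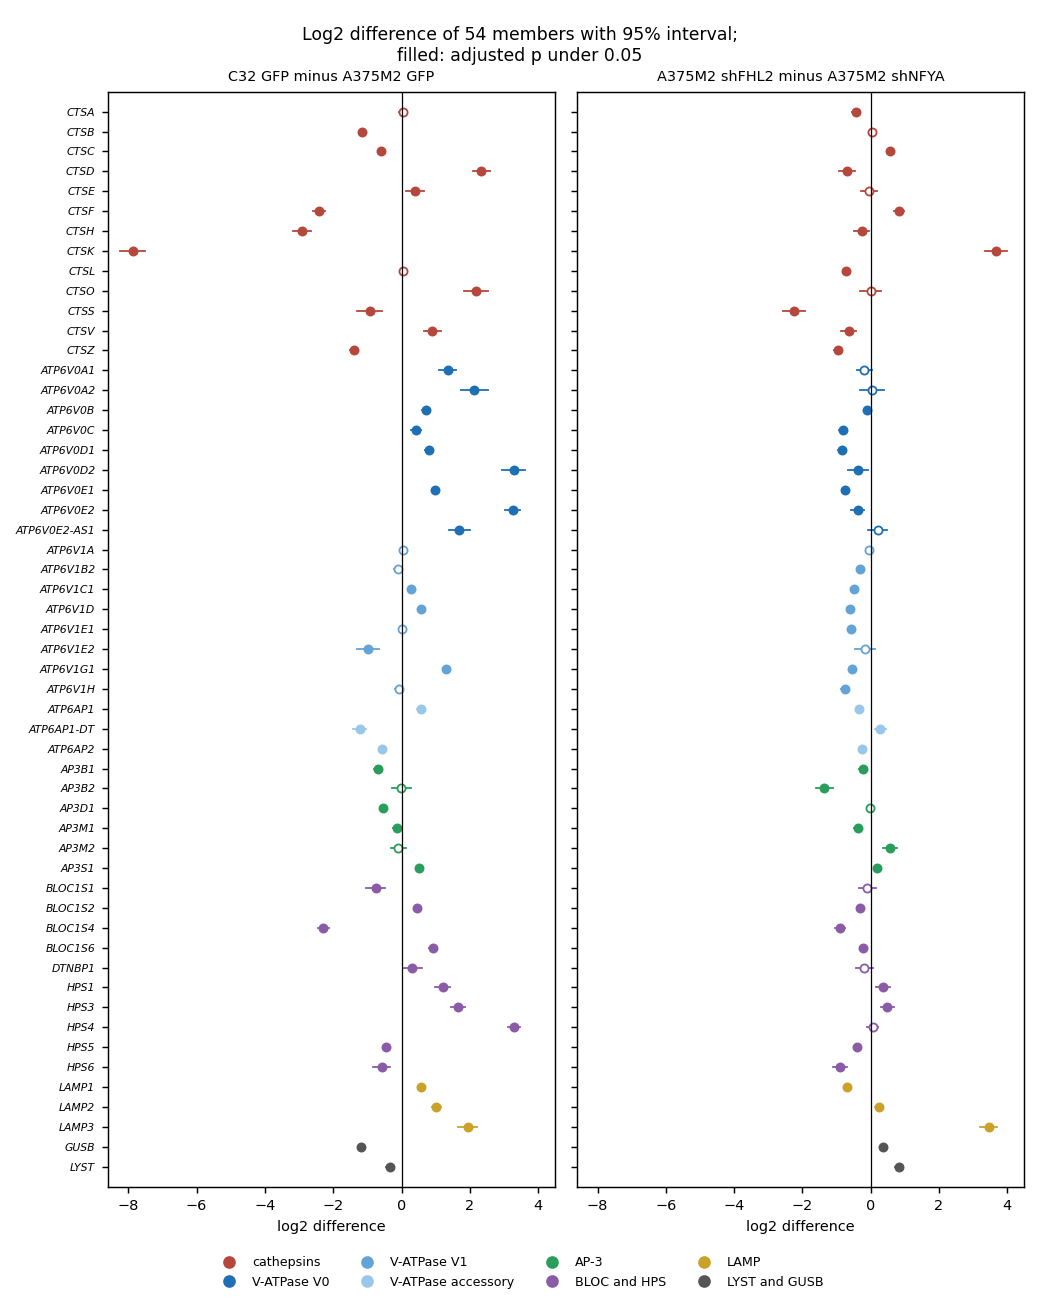
Log2 difference with its 95% interval for the 54 genes (rows, coloured by group) in C32 GFP against A375M2 GFP (left) and in A375M2 shFHL2 against A375M2 shNFYA (right); filled points have a limma adjusted p under 0.05. The V0 genes lie to the right of 0 on the left panel, ATP6V0D2 from values under log2 4 in A375M2. CTSK lies at -7.87 there, with values under log2 4 in C32. V0 and V1 genes lie left of 0 or are not called on the right panel.

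A wider list of 96 other lysosomal and organelle-transport genes, chosen with earlier results of these data known, had 76 members tested. In A375M2 shFHL2 50 fell and 15 rose, in shNFYA 47 fell and 26 rose, with PMEL 21 fell and 8 rose, and in C32 shFHL2 44 fell and 12 rose. Without replicate 3 of A375M2 GFP and PMEL, the PMEL counts were 14 and 4. The soluble hydrolases, which share the lysosome with the cathepsins, fell in 20 of 26 cases in shFHL2, 18 in shNFYA and 17 in C32, and rose in 3, 6 and 2. Of all genes tested, 44.3%, 43.3% and 30.3% were lower and 41.1%, 43.5% and 32.2% higher in these arms, and 17.8% and 22.1% with PMEL. SGSH, the heparan sulphatase sulfamidase, was lower by 3.27 in shFHL2 and by 3.54 in shNFYA (limma adjusted p = 3.79e-18 and 8.17e-19). GPR143, a melanosome receptor, was lower by 6.002 in both, from 8.18 to 2.18, a background value it also had in every C32 array, and rose by 1.51 with PMEL; OCA2, a melanosome transporter, was higher by 3.04 and 2.90. RAB38, which HPS4 helps activate, fell by 3.62 in C32 shFHL2 (limma adjusted p = 2.36e-17). CSTA, a cystatin that inhibits cysteine cathepsins, rose by 1.30 in shFHL2 and fell by 2.82 with PMEL and by 3.23 in shNFYA, both to a mean under log2 4.

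Of the transcription factors with the E-box motif, MITF went from 14.24 in A375M2 GFP to 10.05 in shFHL2 and 8.95 in shNFYA, falls of 4.18 and 5.28 (limma adjusted p = 1.15e-20 and 3.97e-22). In C32 it went from 14.96 to 14.20, a fall of 0.76 (limma adjusted p = 4.21e-09). TFE3 rose by 0.42 and 0.95 in A375M2 and fell by 0.52 in C32, and TFEB rose by 0.57 and 0.63 in A375M2 and was not called in C32 (-0.13). TFEC was under log2 4 in A375M2 and rose by 0.94 in C32.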

How the data were processed

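The deposited log2 values were made by the authors with GCRMA, per the submitters' processing notes, of unstated version. Arrays carry no read depth, so the number of arrays limits the precision. Probe sets were named through the platform annotation and RefSeq gene table, and those listing several genes (ATP6V1F, AP3S2, BLOC1S5) were left out. Genes with log2 4 or more in at least 3 arrays were tested with limma 3.58.1 (R 4.3.3) in 1 group-means fit on 17 arrays with 11 residual degrees of freedom, eBayes with trend and Benjamini-Hochberg adjustment over 10940 genes; the code was tested on simulated data. A call is an adjusted p under 0.05. Figures used matplotlib 3.10.9.

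The genes and lists were chosen with earlier results of these data known. Named by rule were the called genes with the widest differences and no overlap in each group of genes and comparison (up to 3), the widest interactions (up to 5 each way), the PMEL calls (up to 5 each way) and MITF, TFEB, TFE3 and TFEC; other genes were named after their values were seen, to complete their group. The TCACGTGA search, the fit with a shared term for the mirrored arrays and the counts without 4 low genes (log2 4 or more in 6 arrays at most) were added after seeing the data.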

Additional observations from a re-analysis of the deposited data

Results flagged for a closer look

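The results here are genes whose response to the FHL2 shRNAs differed between C32 and A375M2 by the interaction term of the limma fit, the widest each way; CTSE and AP3B2 are left out because they passed the filter only through the groups where they are high. A375M2 GFP and A375M2 shFHL2 lie in different array sets, so the A375M2 side of each gap cannot be told apart from the array set. The C32 value was above that of A375M2 by 2.83 (SE 0.23) log2 for CTSK, 2.76 (SE 0.073) for LYST, 2.15 (SE 0.14) for AP3M2 and 1.97 (SE 0.075) for ATP6V1B2. It was below that of A375M2 for LAMP3, at -4.20 (SE 0.18), CTSS, at -1.88 (SE 0.23), CTSH, at -1.65 (SE 0.16), and ATP6V1E2, at -1.64 (SE 0.21). LAMP3 was called in opposite directions in the 2 lines, 3.25 in A375M2 and -0.95 in C32. CTSK, with a gap of 2.83, was under log2 4 in all C32 arrays, so its gap is a description and no test. CTSH was under log2 4 in C32 shFHL2, and with values under log2 4 set to 4 its gap was -0.60.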

How the results depend on the processing

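Counts of called genes rested most on the fold asked for. At 2-fold or more, 19 of the 54 genes were called in A375M2 shFHL2 (6 higher, 13 lower), 2 with PMEL (1 and 1), 16 in shNFYA (6 and 10), 8 in C32 shFHL2 (2 and 6), 21 between the lines (13 and 8), 4 between shFHL2 and shNFYA (2 and 2) and 15 in the interaction (7 and 8). In the wider list, higher and lower at 2-fold were 2 and 18, 1 and 3, 4 and 22, 0 and 7, 23 and 15, 5 and 3, and 11 and 6 in the same order. Without replicate 3 of A375M2 GFP and PMEL, 4 wider genes rather than 8 were higher with PMEL; the cause was not tested. Leaving out single arrays gave 44 to 47 called genes in shFHL2, 21 to 28 with PMEL, 43 to 46 in shNFYA, 28 to 32 in C32 shFHL2, 43 to 47 between the lines, 39 to 41 between the shRNA arms and 40 to 44 in the interaction; where 1 C32 GFP array remained, it was assumed to vary like the other groups. Same-numbered arrays did not deviate together in one direction (no correlation above 0.0806), apart from the mirrored replicate 3 of A375M2 GFP and PMEL (-0.999), so the numbers were not taken as pairs; with a replicate block the counts were 45, 27, 43, 33, 46, 42 and 41. Reversed signs came from another probe set standing for the gene: ATP6V1C1 with PMEL (0.016) and in shNFYA (-2.51), HPS3 with PMEL (-0.14) and between the shRNA arms (-0.80), LAMP2 in C32 (0.51), AP3M1 between the shRNA arms (0.26), ATP6V0A2 (-2.07) and AP3B1 (0.068) between the lines, and ATP6V0D2 in shFHL2 (-0.085) and shNFYA (-0.083), the last pair also with the filter at log2 6. Values under log2 4 carry little order.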

Other observations

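Genes beside some of the 54 moved with them, and genes beside others did not. Around AP3D1, the median difference of the 20 nearest tested genes was -1.45 in A375M2 shFHL2 and -1.20 in shNFYA, and around CTSO it was -0.86 in C32 shFHL2. Between the lines the neighbours of ATP6V0E2 had a median of 1.21 and those of CTSK -1.27. In A375M2 shFHL2 the neighbours of CTSS had a median of -0.41, where CTSS rose by 2.99. Those of CTSL had 0.79 there, where CTSL differed by -0.28. How often neighbours moved with a gene was not tested. PTPRC, a leukocyte marker, read 8.61 and 8.65 in C32 GFP and 7.96, 7.67 and 7.78 in C32 shFHL2.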
